A study of Mus musculus with 7 samples.

Results

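The islet mRNA of 10 receptors was followed in pregnant mice. They were taken by gene name from a list drawn up with earlier results of these data known, and all 10 were among the 34082 genes of the deposited gene table. The set holds the receptors for the incretins and glucagon (GLP1R, GIPR, GCGR), 2 receptors for lipids derived from nutrients (FFAR1, GPR119), 3 receptors for inhibitory peptides (SSTR3, GALR1, NPY1R), the receptor for PACAP (ADCYAP1R1) and the leptin receptor (LEPR). Of these, 9 reached the mean level of 0.5 TPM, a length-corrected share of a library's transcripts, that was required for a test across genes, as did 14840 genes in all, and NPY1R did not.

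Islet cells adjust hormone release to meals, nerves and fat stores through receptors of this kind. GLP1R, GIPR, GCGR and ADCYAP1R1 are class B G-protein-coupled receptors that couple to Gs, raise cyclic AMP and amplify glucose-stimulated insulin secretion. GPR119 also raises cyclic AMP, FFAR1 couples mainly to Gq and calcium, and the somatostatin, galanin and neuropeptide Y receptors couple to Gi and restrain secretion. LEPR is a cytokine receptor of the same class I family as the prolactin receptor and, in its long form, signals through JAK2 and STAT3.

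Islets were taken on day 15 of pregnancy from 7 dams, each giving 1 library, that had been mated to wild-type males at an age given in the labels as 3 to 4 months. In 4 mice, βPrlR+/-, Prlr was removed from β-cells by a tamoxifen-inducible Cre recombinase (Pdx1CreERTM) acting on a floxed allele, and tamoxifen had been given. This Cre is driven by the promoter of Pdx1, a gene that adult islets express chiefly in β-cells but that earlier marks pancreatic progenitors. In the other 3 mice, Prlr+/-, 1 Prlr allele was missing from every tissue, with no Cre and no tamoxifen. For the β-cell deletion the labels say homozygous and the study's methods heterozygous, and its samples are titled CkoWt, which no source used here explains. Both groups carried a Prlr reduction in β-cells, no wild-type islets were analysed here, and genotype, Cre and tamoxifen differed together, so their parts in any difference cannot be told apart. In whole islets, fewer cells of a type and less RNA per cell cannot be told apart either.

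The deposited values are TPM, which are per length of transcript, so levels can be compared between genes. They were divided by a size factor per mouse and are given as scaled TPM. The insulin genes took 46.1% to 53.2% of all TPM in βPrlR+/- mice and 54.0% to 58.9% in Prlr+/- mice. Dividing by the size factor moved the median log2 fold change over the genes tested from −0.12 to 0.0042. TPM keeps no depth, so the number of reads behind a value is not known and no counting interval is given. The prolactin receptor, PRLR, was at 55.7, 38.4, 47.3 and 38.8 scaled TPM in βPrlR+/- mice 1 to 4 and at 36.1, 51.1 and 35.1 in Prlr+/- mice 1 to 3. Its groups overlapped (two-sided exact permutation test over 35 assignments of the mice, p = 0.571), and since the floxed allele loses 1 exon, a gene-level value does not show the deletion. Of its 9 transcripts, the predicted XM_006520036.1 had means of 2.59 and 0.451 scaled TPM in βPrlR+/- and Prlr+/- mice without overlap, with a limma adjusted p of 0.729, and NM_011169.5, which encodes 608 residues in GENCODE, had means of 5.10 and 3.16 with overlap and did not pass either. Among markers of islet cells, INS, Ins1 and Gcg reached at least 14566 scaled TPM in every mouse. The summed markers of acinar cells, which surround the islets, ran from 1404 to 12099 scaled TPM in βPrlR+/- mice and from 3836 to 10080 in Prlr+/- mice.

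The 10 receptors fell into 7 that were well represented and 3 that were near the level of 0.5 TPM required for a test. GLP1R was the highest with a mean of 153 scaled TPM over the 7 mice, followed by SSTR3 at 94.4, GIPR at 51.3 and FFAR1 at 38.3. GCGR at 16.0, GPR119 at 14.5 and GALR1 at 12.7 lay close together. GLP1R exceeded 97.8% of the genes tested and GALR1 65.1% of them. A 13.9-fold gap separated GALR1 from ADCYAP1R1 at 0.909 scaled TPM, LEPR at 0.634 and NPY1R at 0.382. ADCYAP1R1 exceeded 10.1% of the genes tested and LEPR 4.37%.

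**Figure D1:**
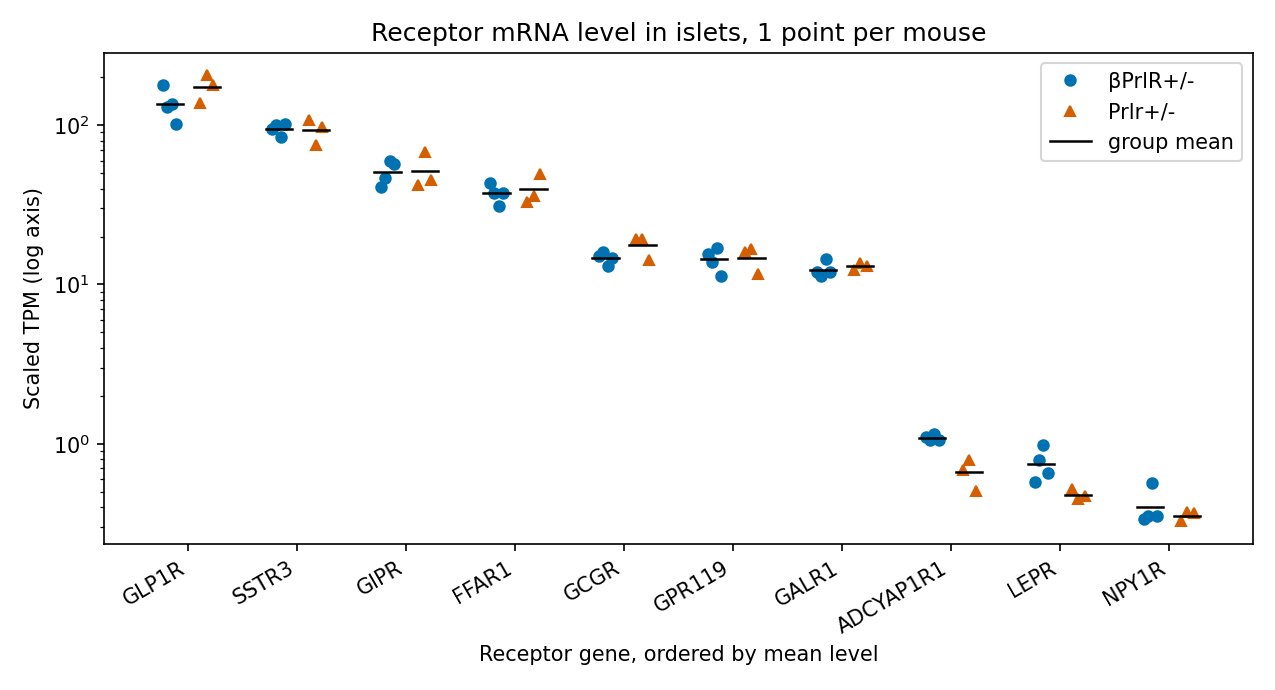
Level of each receptor in the islets of each mouse, in scaled TPM on a log axis, with circles for the 4 βPrlR+/- mice, triangles for the 3 Prlr+/- mice and a bar at each group mean. The 7 upper receptors lie between 11.3 and 206 scaled TPM, and ADCYAP1R1, LEPR and NPY1R between 0.327 and 1.16.

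The order was not equally firm at each step. SSTR3 was above GIPR, FFAR1 above GCGR and GALR1 above ADCYAP1R1 in 7 of 7 mice with ranges that did not overlap. GLP1R was above SSTR3 in 6 of 7 mice, the exception being βPrlR+/- mouse 4. GIPR was above FFAR1, GCGR above GPR119 and GPR119 above GALR1 in 5 of 7 mice each, so these neighbours did not differ beyond their spread. Within every mouse ADCYAP1R1 was above LEPR and LEPR above NPY1R, although the ranges of these neighbours overlapped between mice. The coefficient of variation over the 7 mice was lowest for GALR1, at 8.69%, and highest for LEPR, at 30.2%, beside a median of 11.2% for all genes tested.

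None of the 9 receptors tested differed between the groups in limma's test after Benjamini-Hochberg adjustment at 0.05, and 10 of 14840 genes did (0.0674%). At an unadjusted p under 0.05, 1 of the 9 passed, ADCYAP1R1, beside 4.52% of all genes tested. LEPR was at 0.0501 in limma and fell below 0.05 in some of the other settings. The 3 Prlr+/- mice and the 4 βPrlR+/- mice did not overlap for 2 of the 9, ADCYAP1R1 and LEPR, and both were lower in Prlr+/- mice. Groups that did not overlap were found for 4.95% of all genes tested in either direction and for 3.11% with the lower values in Prlr+/- mice. At the transcript level no transcript of a receptor passed, and 0.021% of the 28553 transcripts tested did.

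**Figure D2:**
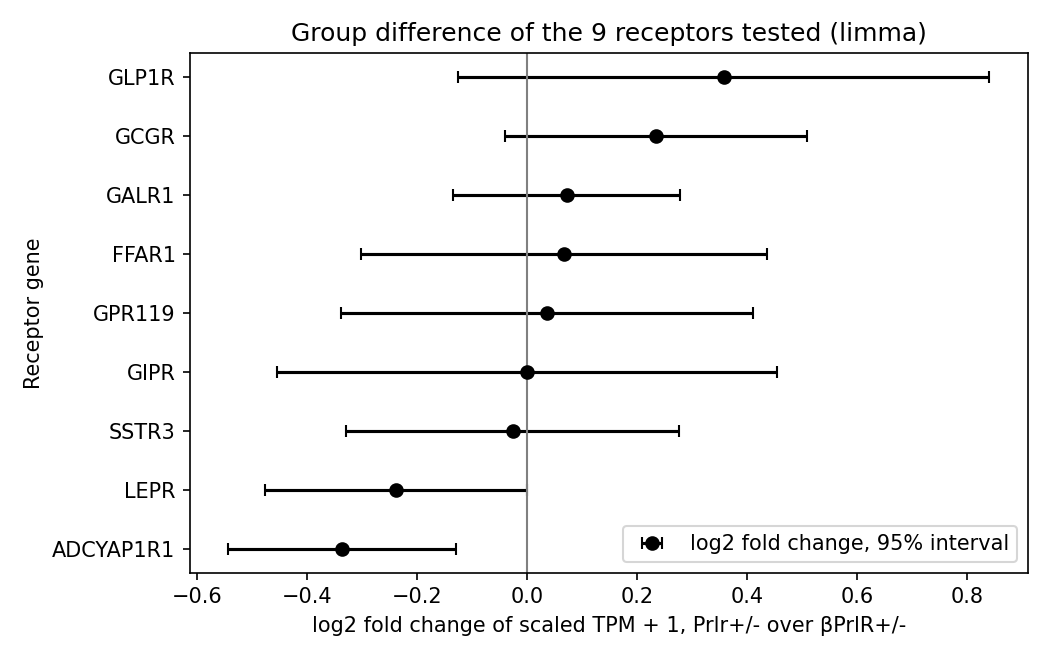
The log2 fold change of scaled TPM + 1 for the 9 receptors tested, Prlr+/- over βPrlR+/- mice, as points with 95% intervals from limma. The intervals run across 0 for all but ADCYAP1R1, whose interval is −0.54 to −0.13, and that of LEPR ends at 0.

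GLP1R, the receptor for glucagon-like peptide 1 and the most abundant of the set, was at 179, 129, 136 and 101 scaled TPM in βPrlR+/- mice 1 to 4. In Prlr+/- mice 1 to 3 it was at 137, 206 and 180 scaled TPM. The lowest value, in βPrlR+/- mouse 4, was about as far from βPrlR+/- mouse 1 as from Prlr+/- mouse 3, and the groups overlapped. The means were 136 ± 32.0 (SD, n = 4) and 174 ± 34.7 scaled TPM (SD, n = 3), a log2 fold change of 0.36 (SE 0.21, 95% interval −0.13 to 0.84) with an adjusted p of 0.9999 in limma. Of the 10 β-cell markers tested, 9 had higher values in Prlr+/- mice (median log2 fold change 0.30, or 0.15 with 8 higher on TPM as deposited), with none past the adjusted threshold. Their summed level was 451635 to 599286 scaled TPM in βPrlR+/- mice and 582574 to 715449 in Prlr+/- mice. With the mean of those markers as a covariate the log2 fold change of GLP1R was −0.19 in place of 0.36.

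GIPR, the receptor for glucose-dependent insulinotropic polypeptide, was at 41.0, 46.3, 59.6 and 57.3 scaled TPM in βPrlR+/- mice and at 42.0, 67.6 and 45.2 in Prlr+/- mice. The highest value belonged to Prlr+/- mouse 2, and the other Prlr+/- mice lay in the lower part of the βPrlR+/- range. The means were 51.0 ± 8.88 (SD, n = 4) and 51.6 ± 13.9 scaled TPM (SD, n = 3), and the 95% interval of the log2 fold change was −0.45 to 0.45. Prlr+/- mouse 2 was the highest in both GLP1R and GIPR, while βPrlR+/- mouse 1 was high in GLP1R and lowest in GIPR. The log2 ratio of GIPR to GLP1R ran from −2.13 in βPrlR+/- mouse 1 to −0.82 in βPrlR+/- mouse 4, which spans all 3 Prlr+/- mice. The group means were −1.41 ± 0.55 (SD, n = 4) and −1.77 ± 0.20 (SD, n = 3), with p = 0.371 in the exact permutation test and 0.714 after adjustment over the 2 ratios computed.

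GCGR, the glucagon receptor, was at 15.2, 16.0, 13.04 and 14.6 scaled TPM in βPrlR+/- mice and at 19.2, 19.3 and 14.3 in Prlr+/- mice. Prlr+/- mice 1 and 2 stood above every βPrlR+/- mouse and Prlr+/- mouse 3 stood within them. The means were 14.7 ± 1.25 (SD, n = 4) and 17.6 ± 2.83 scaled TPM (SD, n = 3), with a log2 fold change of 0.23 (SE 0.12, 95% interval −0.040 to 0.51) and an adjusted p of 0.9999 in limma. The log2 ratio of GCGR to GLP1R differed by −0.11 between the groups (exact permutation test, p = 0.714, n = 4 and 3). GLP1R had 1 transcript in the table, GIPR 7 and GCGR 10. The RefSeq transcript NM_008101.2 held 50.6% to 65.9% of the GCGR value in each mouse, and NM_001080815.1 held 28.6% to 38.7% of the GIPR value.

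FFAR1, a receptor for long-chain fatty acids, was at 43.3, 37.7, 31.0 and 37.5 scaled TPM in βPrlR+/- mice and at 33.1, 36.0 and 49.5 in Prlr+/- mice. GPR119, a receptor for oleoylethanolamide and related lipids, was at 15.6, 13.8, 16.8 and 11.3 scaled TPM in βPrlR+/- mice and at 16.0, 16.6 and 11.7 in Prlr+/- mice. For FFAR1 the lowest value was in a βPrlR+/- mouse and the highest in a Prlr+/- mouse, and for GPR119 both belonged to βPrlR+/- mice. The groups of both genes overlapped. The log2 fold change was 0.07 for FFAR1 (SE 0.16, 95% interval −0.30 to 0.44) and 0.04 for GPR119 (SE 0.16, 95% interval −0.34 to 0.41). Both log2 fold changes were negative on TPM as deposited and with the β-cell markers as a covariate.

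SSTR3, a somatostatin receptor that sits on the primary cilium, was at 94.3, 99.6, 83.9 and 102 scaled TPM in βPrlR+/- mice and at 108, 75.6 and 97.8 in Prlr+/- mice. Both the highest and the lowest value belonged to Prlr+/- mice. The means were 94.8 ± 7.94 (SD, n = 4) and 93.9 ± 16.7 scaled TPM (SD, n = 3), with a 95% interval of the log2 fold change of −0.33 to 0.28. Most of the SSTR3 value came from the transcript NM_009218.3, with 63.1% to 70.3% in each mouse. GALR1, a galanin receptor, was at 11.9, 11.3, 14.4 and 11.9 scaled TPM in βPrlR+/- mice and at 12.4, 13.6 and 13.1 in Prlr+/- mice. It varied least of the 10, by 1.28-fold between its lowest and highest mouse, and its 95% interval of the log2 fold change was −0.13 to 0.28. NPY1R, a receptor for neuropeptide Y and peptide YY, was at 0.339, 0.350, 0.569 and 0.351 scaled TPM in βPrlR+/- mice and at 0.327, 0.372 and 0.366 in Prlr+/- mice. Of these values only that of βPrlR+/- mouse 3 stood apart, and the groups overlapped (exact permutation test, p = 0.857, n = 4 and 3).

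ADCYAP1R1, the PAC1 receptor for the neuropeptide PACAP, was at 1.10, 1.06, 1.16 and 1.05 scaled TPM in βPrlR+/- mice. In Prlr+/- mice it was at 0.688, 0.797 and 0.504 scaled TPM. The βPrlR+/- mice lay within a narrow band, every Prlr+/- mouse was below it, and the groups did not overlap on TPM as deposited either. The means were 1.09 ± 0.0487 (SD, n = 4) and 0.663 ± 0.148 scaled TPM (SD, n = 3), which puts the Prlr+/- mean 39.4% below the other. The two-sided exact permutation test gave p = 0.0286, the smallest that 35 assignments can give. The log2 fold change was −0.34 (SE 0.088, 95% interval −0.54 to −0.13) after adding 1 to the scaled TPM, a step that understates differences of low genes. In limma the unadjusted p was 0.00604 and the adjusted p 0.694, so the difference did not pass the test across all genes. In all 13 settings tried the log2 fold change was negative, from −0.66 to −0.27, with adjusted p of at least 0.501.

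The table lists 7 transcripts of ADCYAP1R1. In GENCODE, NM_007407.4 encodes 496 residues and NM_001025372.2 encodes 468, a difference of 28 residues. The longer coding form made up 27.2% to 83.7% of the gene's value across mice and the shorter one up to 62.2%. Their split varied within both groups, most in Prlr+/- mouse 1, where the shorter form was at 0.428 and the longer at 0.187 scaled TPM. The longer form was at 0.535, 0.714, 0.827 and 0.607 scaled TPM in βPrlR+/- mice and at 0.187, 0.667 and 0.394 in Prlr+/- mice, and the groups overlapped (exact permutation test, p = 0.143, n = 4 and 3). The number of reads behind these low values is not known, and the lower value of the gene was not assigned to one form.

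LEPR was at 0.577, 0.788, 0.979 and 0.659 scaled TPM in βPrlR+/- mice and at 0.519, 0.448 and 0.471 in Prlr+/- mice. Every Prlr+/- mouse was below every βPrlR+/- mouse, but the nearest pair, βPrlR+/- mouse 1 and Prlr+/- mouse 1, lay close together. The means were 0.7504 ± 0.175 (SD, n = 4) and 0.479 ± 0.0364 scaled TPM (SD, n = 3), which puts the Prlr+/- mean 36.1% below the other. Here the exact permutation test gave p = 0.0571, or 2 of 35 assignments. The log2 fold change was −0.24 (SE 0.10) with an unadjusted p of 0.0501 and an adjusted p of 0.9999 in limma. It was negative in all 13 settings, from −0.53 to −0.16, and was −0.16 with the β-cell markers as a covariate. The unadjusted p of LEPR in limma was 0.0417 on TPM as deposited and 0.0272 with no filter. With that covariate the unadjusted p was 0.33.

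The leptin receptor is made in a long form that carries the docking region for STAT3 and in short forms that lack most of the intracellular part. In GENCODE, NM_146146.2 encodes the long form of 1162 residues, NM_001122899.1 a short form of 894 residues and NM_010704.2 a short form of 892 residues. The short form of 894 residues held 88.8% to 100% of the LEPR value in every mouse. It was at 0.518, 0.767, 0.898 and 0.644 scaled TPM in βPrlR+/- mice and at 0.461, 0.448 and 0.446 in Prlr+/- mice, without overlap (exact permutation test, p = 0.0571, n = 4 and 3), and did not pass limma's adjusted test. The long form was above 0 in 2 of 7 mice and reached at most 2.15% of the gene's value. Long-form mRNA was thus at or near the lower limit of the table in both groups, where an exact 0 can be a failed estimate.

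**Figure D3:**
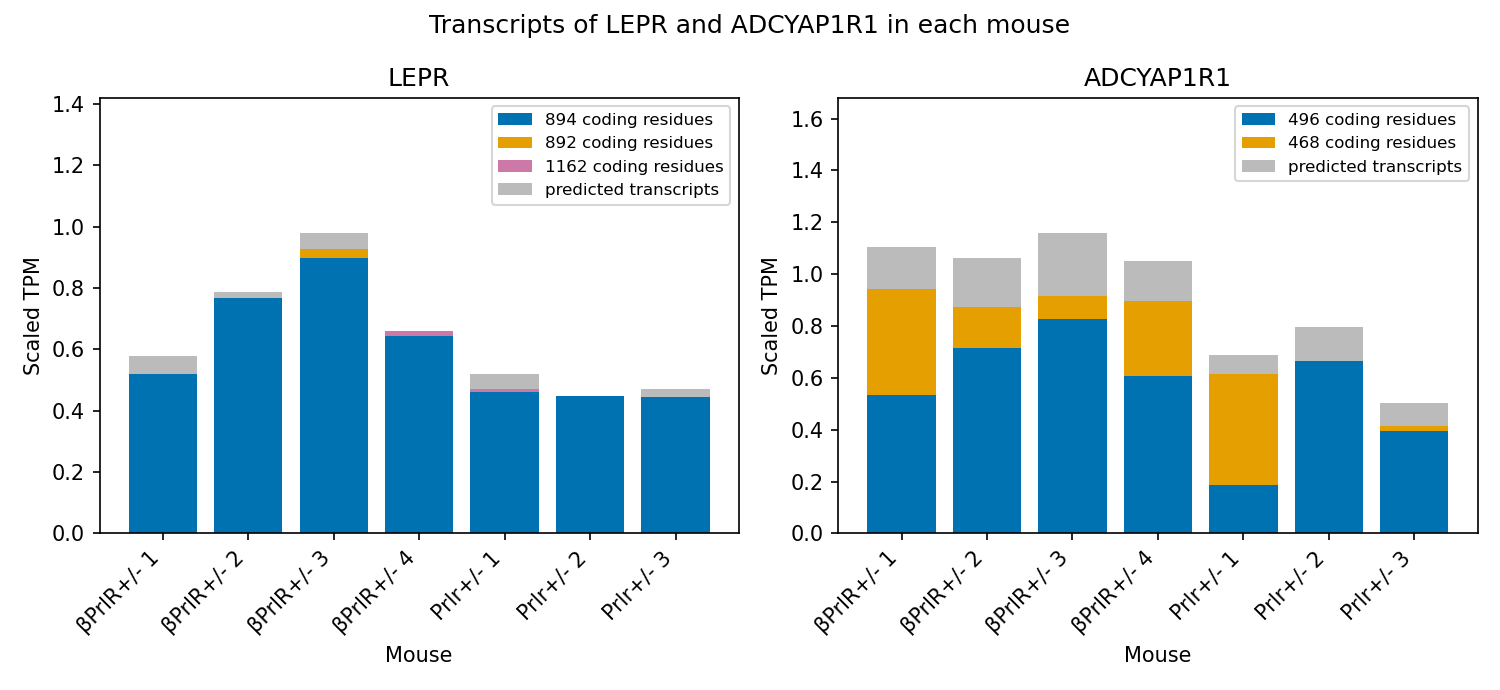
Scaled TPM of the transcripts of LEPR and ADCYAP1R1 in each mouse, stacked to the gene's value and coloured by the number of coding residues, with predicted transcripts in grey. The LEPR short form of 894 residues makes up 88.8% to 100% of each bar. For ADCYAP1R1 the form of 468 residues exceeds that of 496 residues only in Prlr+/- mouse 1, and the bar is lowest in the 3 Prlr+/- mice.

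The bases just before the start site are printed for these receptors because they are the only 2 of the 9 whose groups did not overlap. RefSeq's promoter table for GRCm38.p6 held 8 of the 10 receptors, with 2 starts for Lepr of which the first is shown, and the 250 bases upstream of each start were searched on both strands. The motifs were the STAT site TTCNNNGAA, the cyclic AMP response element TGACGTCA, the palindromic estrogen response element, the GC box GGGCGG and the CCAAT box CCAAT. The table also holds 2 starts for Sstr3. Capitals mark a match on either strand, so a CCAAT box on the opposite strand reads ATTGG and such a GC box reads CCGCCC. The first sequence is on the plus strand at chr4:101717157-101717406 and the second on the plus strand at chr6:55451728-55451977.
Lepr: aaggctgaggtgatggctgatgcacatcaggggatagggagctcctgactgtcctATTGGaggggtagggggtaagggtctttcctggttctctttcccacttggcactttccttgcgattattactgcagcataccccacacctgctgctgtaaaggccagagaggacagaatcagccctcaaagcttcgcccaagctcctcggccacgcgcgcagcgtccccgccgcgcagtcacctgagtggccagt
Adcyap1r1: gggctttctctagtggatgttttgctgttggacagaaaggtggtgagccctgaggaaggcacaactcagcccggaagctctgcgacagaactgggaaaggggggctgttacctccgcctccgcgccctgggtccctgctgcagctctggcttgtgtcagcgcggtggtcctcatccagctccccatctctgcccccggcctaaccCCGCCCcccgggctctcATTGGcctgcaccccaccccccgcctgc

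The Lepr window shown held a CCAAT box starting 195 bases before the start, that of the second Lepr start held a GC box 164 bases before it and no CCAAT box, and the Adcyap1r1 window held a GC box 45 bases and a CCAAT box 28 bases before the start. None of the letters of the STAT site, the cyclic AMP response element or the estrogen response element occurred in either window or in those of the other 6 receptors searched. In windows of the same length before all 32851 starts of the RefSeq table, the STAT site was present in 7.02%, the cyclic AMP response element in 1.55% and the estrogen response element in 0.0639%. The GC box was present in 32.7% of them and the CCAAT box in 33.8%, so these matches are common. The matches are a description of the letters only.

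Most markers of several other cell types in islets had, like ADCYAP1R1 and LEPR, lower values in Prlr+/- mice without passing the test across genes. All 7 endothelial markers had lower values in Prlr+/- mice. Their median log2 fold change was −0.23 and their summed level was 164 to 199 scaled TPM in βPrlR+/- mice and 139 to 170 in Prlr+/- mice. ESAM, an adhesion molecule of endothelial tight junctions, had means of 16.9 ± 0.671 (SD, n = 4) and 14.3 ± 0.466 scaled TPM (SD, n = 3) without overlap, with an adjusted p of 0.607 in limma. Of 6 neuronal markers tested, 5 had lower values in Prlr+/- mice, with a median of −0.14 and summed levels of 155 to 176 and 130 to 165 scaled TPM. The largest parts of that sum were SNAP25, TH and STMN3, with means of 87.8, 29.3 and 22.9 scaled TPM over the 7 mice. Which islet cells these transcripts came from was not tested. The exception among the 6 was ELAVL4, a neuronal RNA-binding protein and the marker of that list with the smallest p. Its means were 10.8 ± 0.415 (SD, n = 4) and 13.3 ± 1.48 scaled TPM (SD, n = 3). It was higher in Prlr+/- mice without overlap, with a log2 fold change of 0.27 and an adjusted p of 0.807 in limma. GAP43, a protein of growing axons that was named after its values were seen, was lower without overlap, with means of 5.21 ± 0.381 (SD, n = 4) and 3.85 ± 0.691 scaled TPM (SD, n = 3), a log2 fold change of −0.36 and an adjusted p of 0.817. Of 4 Schwann cell markers tested, 3 had lower values, with a median of −0.30 and summed levels of 6.22 to 10.2 and 5.70 to 6.88 scaled TPM. Of 5 fibroblast markers tested, 4 had lower values, with a median of −0.12 and summed levels of 9.004 to 19.7 and 7.81 to 15.7 scaled TPM. None of the markers of these 4 cell types was at 0 in all mice and none passed the adjusted test, and the part of these cells in the receptor values was not tested. The 4 macrophage markers tested had a median of 0.04 and the 6 acinar markers one of 0.09, and both medians were negative on TPM as deposited, at −0.031 and −0.056.

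Over the 7 mice, the genes whose pattern was nearest to each receptor were sought among 9001 genes with a mean of at least 5 TPM. Nearness was the root mean square difference of log2(scaled TPM + 1), each gene centred on its own mean. Adding 1 compresses the pattern of ADCYAP1R1, LEPR and NPY1R but hardly that of the candidates, so for these 3 receptors the nearest genes are those near the compressed pattern. ADCYAP1R1 was nearest to NOSTRIN, which regulates trafficking of endothelial nitric oxide synthase, with a difference of 0.054. Next came Clec2d at 0.070 and GC at 0.071, beside 0.18 for the receptor's own spread and a median of 0.23 over the candidates. LEPR was nearest to SNRK, a kinase, at 0.062. GLP1R was nearest to ALDH1L2, a mitochondrial folate enzyme, at 0.087, to ERO1B, an oxidase of the endoplasmic reticulum, at 0.11, and to PDX1, a β-cell transcription factor, at 0.12, against its own spread of 0.32. SSTR3 lay nearest to SYT11 at 0.024, to CHGA, the secretory granule protein chromogranin A, at 0.032, and to OTULIN at 0.037, against its own spread of 0.16. The nearest genes of the others were MED12 for GIPR at 0.061, RBM4 for GCGR at 0.081, RPS27A for FFAR1 at 0.070, Gm20300 for GPR119 at 0.095, ROCK2 for GALR1 at 0.030 and SNX18 for NPY1R at 0.026. The points share their libraries and size factors, and the best of many candidates is near by selection.

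**Figure D4:**
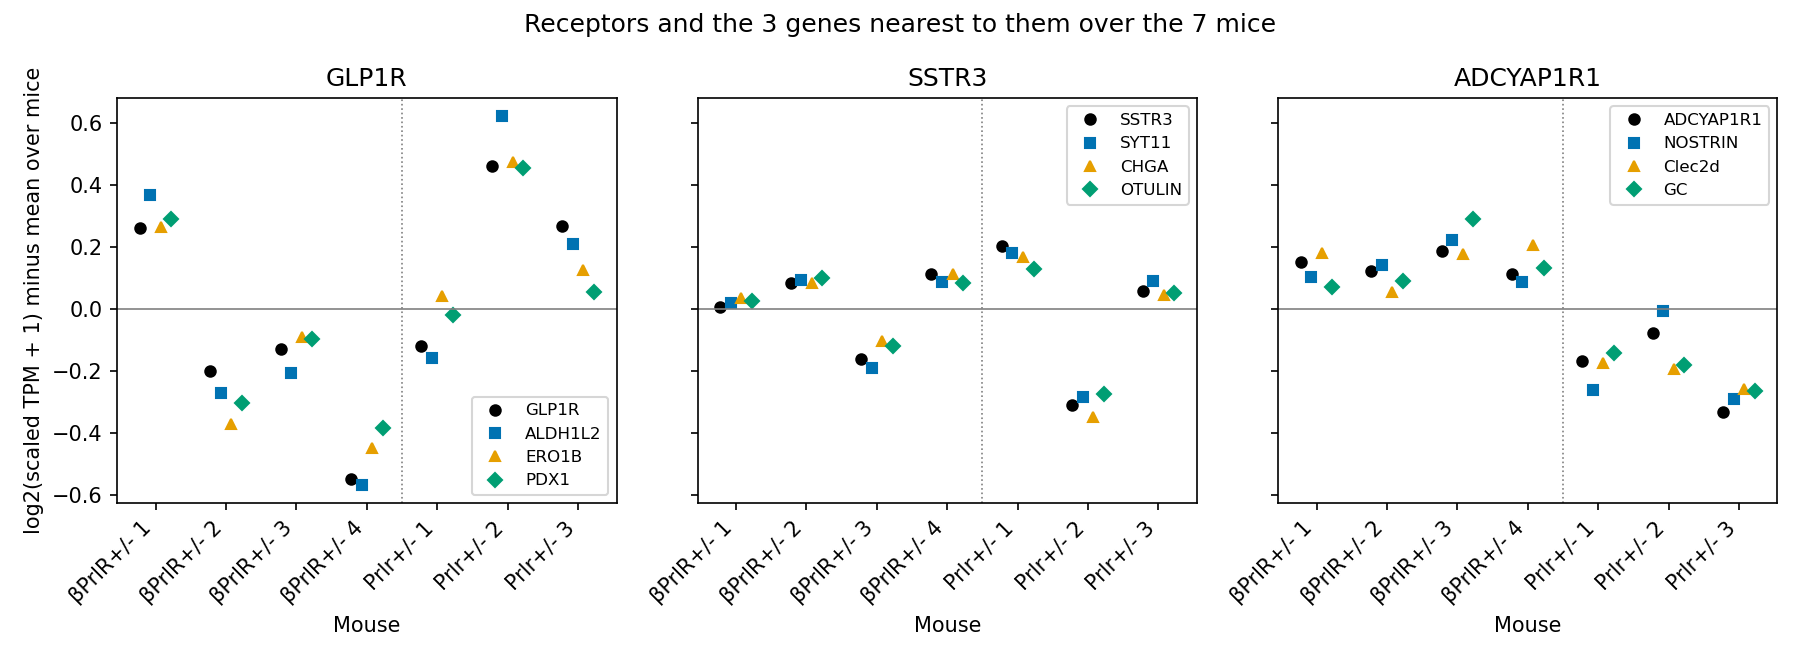
Centred log2(scaled TPM + 1) of GLP1R, SSTR3 and ADCYAP1R1 and of the 3 genes nearest to each, for each mouse, with a dotted line between the genotypes. GLP1R is lowest in βPrlR+/- mouse 4, SSTR3 is lowest in Prlr+/- mouse 2, and ADCYAP1R1 is below its mean in all 3 Prlr+/- mice.

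Peptides that act on these receptors or on related ones were listed alongside. Of the 11 ligand genes in the list, 8 were tested, none passed, and all 8 had lower values in Prlr+/- mice. Their median log2 fold change was −0.29, beside 0.0042 over the genes tested. Gcg, the precursor of glucagon and glucagon-like peptide 1, had means of 18655 ± 3280 (SD, n = 4) and 14842 ± 265 scaled TPM (SD, n = 3), and its log2 fold change was −0.31. SST, the ligand of SSTR3, had means of 5535 ± 1150 and 4653 ± 510 scaled TPM, and PPY, pancreatic polypeptide, 8900 ± 832 and 7672 ± 510. NPY, a ligand of NPY1R, was at 32.8, 62.4, 32.8 and 32.9 scaled TPM in βPrlR+/- mice and at 26.8, 22.5 and 25.2 in Prlr+/- mice. The groups of NPY did not overlap, βPrlR+/- mouse 2 stood far above the other 3, and the log2 fold change was −0.62 with an adjusted p of 0.9999 in limma. GIP, the ligand of GIPR, was listed at 0 in every mouse. All 8 α-cell markers, Gcg among them, had lower values in Prlr+/- mice, with a median of −0.18 and summed levels of 15809 to 23648 and 15694 to 16273 scaled TPM, and 3 of 4 markers of δ- and PP-cells had lower values, with a median of −0.22.

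Of 23 related receptors, 12 were tested and none passed, with 8 lower and 4 higher in Prlr+/- mice around a median of −0.07 on the log2 scale. The most abundant were GALR3, another galanin receptor, at means of 23.2 and 26.7 scaled TPM, FFAR2, a receptor for short-chain fatty acids, at 20.6 and 22.9, and VIPR1, a receptor for vasoactive intestinal peptide and PACAP, at 17.2 and 17.8. Each of these was above GCGR, GPR119, GALR1 and ADCYAP1R1 in its mean level. NPY5R was listed at 0 in every mouse.

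Of 7 genes for proteins that accompany or inactivate these receptors and ligands, 6 were tested and none passed. LEPROTL1 and LEPROT, which affect the surface level of LEPR, had means of 31.7 and 33.8 and of 23.9 and 24.0 scaled TPM in βPrlR+/- and Prlr+/- mice. DPP4, the protease that inactivates both incretins, had means of 14.6 ± 1.79 (SD, n = 4) and 15.7 ± 1.70 scaled TPM (SD, n = 3). RAMP3, a partner of class B receptors, was at 5.98, 5.41, 5.08 and 4.98 scaled TPM in βPrlR+/- mice and at 4.72, 3.84 and 4.45 in Prlr+/- mice. Its groups did not overlap, and its log2 fold change was −0.26 with an adjusted p of 0.962 in limma. The list had a median of 0.04, which was −0.10 on TPM as deposited.

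Downstream, none of the 37 signalling genes tested passed, a list of G proteins and their RGS regulators, protein kinase A subunits, other cyclic AMP effectors, phosphodiesterases, phospholipases C, receptor kinases and arrestins. Of the 37, 15 were lower and 22 higher in Prlr+/- mice, around a median of 0.02 on the log2 scale. GNAS, which encodes the Gs subunit used by the receptors that raise cyclic AMP, had means of 844 ± 66.9 (SD, n = 4) and 807 ± 42.5 scaled TPM (SD, n = 3). GNAI2, a Gi subunit, had means of 297 ± 59.5 and 364 ± 16.0 scaled TPM, and PRKAR1A, a regulatory subunit of protein kinase A, 184 ± 6.83 and 182 ± 11.1. Pde4d, a cyclic AMP phosphodiesterase, had the smallest p of the list, with means of 1.78 ± 0.133 and 1.39 ± 0.139 scaled TPM, a log2 fold change of −0.22 and an adjusted p of 0.9999 in limma. Of 8 cyclic AMP target genes tested, none passed and 6 were higher, with a median of 0.15 that was 0.035, with 5 higher, on TPM as deposited. NR4A1, an immediate early gene, was at 6.55, 7.38, 18.1 and 6.44 scaled TPM in βPrlR+/- mice and at 13.5, 14.4 and 26.5 in Prlr+/- mice. Its log2 fold change was 0.91 (SE 0.38) with an adjusted p of 0.9999 in limma, and the groups overlapped through βPrlR+/- mouse 3. For PER1, the means were 18.2 and 19.5 scaled TPM, and for DUSP1 13.6 and 12.9. Of 13 cilium genes, the compartment of SSTR3, none passed and 11 were higher, with a median of 0.04, which for BBS2 meant 17.5 against 17.7 scaled TPM. Without the size factors the genes tested had a median of −0.12 themselves. The medians there were −0.12 for the signalling genes, with 33 of 37 lower, and −0.087 for the cilium genes, with all 13 lower. With upper-quartile scaling the signalling median was −0.0025, with 20 of 37 lower, and the cilium median 0.012, with 8 of 13 higher.

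**Figure D5:**
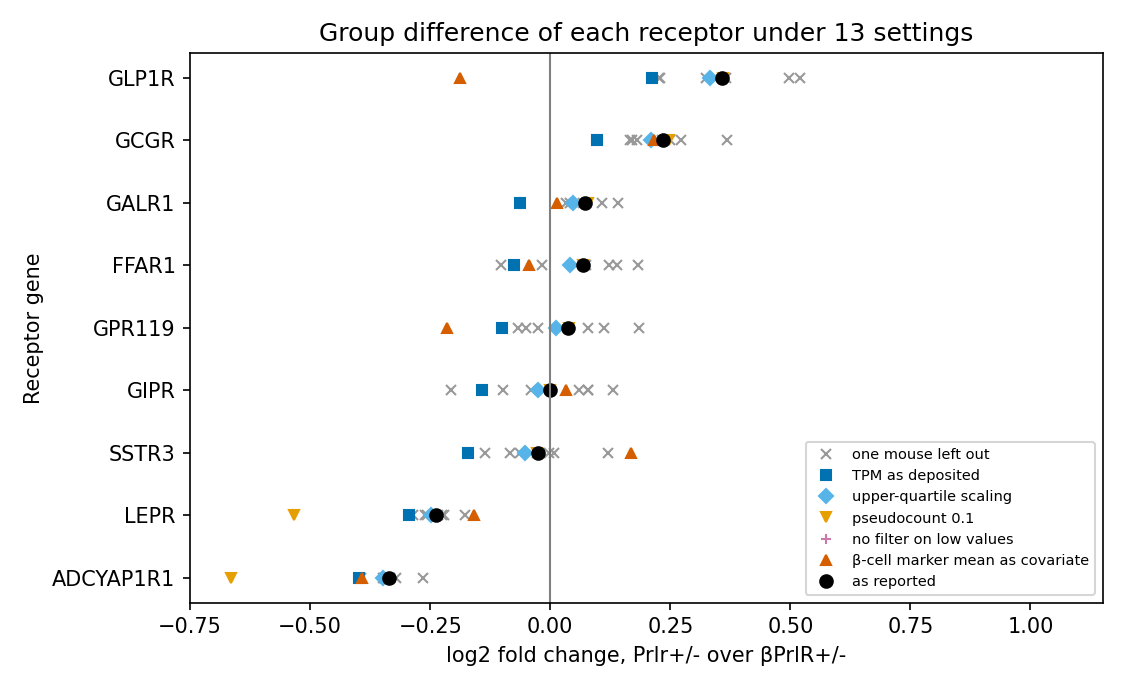
The log2 fold change of each of the 9 receptors tested, Prlr+/- over βPrlR+/- mice, under 13 settings, with black circles as reported and crosses for fits that leave out 1 mouse. ADCYAP1R1, LEPR and GCGR keep 1 sign throughout, GLP1R turns negative with the β-cell marker mean as a covariate, and the other 5 receptors lie on both sides of 0.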

How the data were processed

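Poly(A) RNA of hand-picked islets was sequenced from directional libraries, and the authors assigned reads to mouse RefSeq transcripts with kallisto (version 0.42.4 in the submitters' processing notes). The genome build is not given in the sources used here. The deposited values are TPM, since each mouse sums to 1000000, a property of TPM; the methods call them FPKM. The value of a gene was the sum of its transcripts. A median-ratio size factor over 14435 genes was applied per mouse. Genes with a mean of at least 0.5 TPM were tested with limma 3.58.1 in R 4.3.3 on log2(scaled TPM + 1), as a trend fit of the 2 groups with Benjamini-Hochberg adjustment over 14840 genes and a threshold of 0.05. Single genes were also compared by two-sided exact permutation tests over 35 assignments. Mice were grouped by the labels, which name separate mice but no batch. The receptors and gene lists were chosen with earlier results of these data known. Described genes were all 10 receptors, PRLR, and from each list the 3 with the highest mean, any that passed and the one with the smallest p, of which some are printed. For each receptor the nearest genes came from those with a mean of at least 5 TPM. Transcript identifiers were matched to GENCODE M21 for coding lengths. Alternatives were upper-quartile scaling, unscaled TPM, a pseudocount of 0.1, no filter, the β-cell marker mean as a covariate and leaving out each mouse. Tables of single mice held the same values and were not used further.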

Additional observations from a re-analysis of the deposited data

Results flagged for a closer look

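Among 37 groups of 4 βPrlR+/- mice examined, 4 had 1 mouse that stood apart, and chance alone gives about 1 in 20. The groups were those of the receptors, PRLR, both ratios, the genes that the naming rule took from the pathway lists, and ESAM, and the other cell type markers were left out. Each is given as the gap to the nearest mouse divided by the group's range, which passed Dixon's 95% critical value. NPY1R was at 0.569 scaled TPM in βPrlR+/- mouse 3 and between 0.339 and 0.351 in the others, a gap of 0.947 of the range. The same mouse had the highest LEPR value, 0.979 scaled TPM, and the highest summed acinar markers, 12099 scaled TPM. The acinar sum was nearly as high in βPrlR+/- mouse 1, at 11884 scaled TPM, where NPY1R was at 0.339 and LEPR at 0.577. Whether these values bear on that of NPY1R was not tested. NR4A1 was at 18.1 scaled TPM in βPrlR+/- mouse 3 and between 6.44 and 7.38 in the others, a gap of 0.919. NPY was at 62.4 scaled TPM in βPrlR+/- mouse 2 and between 32.8 and 32.9 in the others, a gap of 0.995. BBS2 was at 18.2 scaled TPM in the same mouse and between 17.1 and 17.3 in the others, a gap of 0.835.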

How the results depend on the processing

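None of the receptors passed the adjusted test under any of the 13 settings. The number of genes called in the whole table was 10, with 18 at a pseudocount of 0.1, 4 without a filter and 2 with the β-cell marker mean as a covariate. Leaving out 1 mouse gave 2 to 13 genes (2 without βPrlR+/- mouse 4, and 5 without βPrlR+/- mouse 1, Prlr+/- mouse 1 or Prlr+/- mouse 2) and 3 to 11 transcripts against 6 (3 without βPrlR+/- mouse 4, 10 without Prlr+/- mouse 1 and 11 without Prlr+/- mouse 2). The log2 fold change changed sign on TPM as deposited for GIPR (−0.14), FFAR1 (−0.075), GPR119 (−0.10) and GALR1 (−0.063). With the β-cell marker mean as a covariate it did so for GLP1R (−0.19), FFAR1 (−0.044), GPR119 (−0.21) and SSTR3 (0.17). For GIPR it was −0.026 with upper-quartile scaling and −7.2e-05 at a pseudocount of 0.1. With 1 mouse left out it ran from −0.21 to 0.13 for GIPR, from −0.10 to 0.18 for FFAR1, from −0.067 to 0.18 for GPR119 and from −0.14 to 0.12 for SSTR3. It stayed positive for GLP1R (0.23 to 0.52), GCGR (0.17 to 0.37) and GALR1 (0.033 to 0.14), and for GCGR it was 0.097 on TPM as deposited. The difference in the log2 ratio of GCGR to GLP1R ran from −0.34 to 0.063, being 0.020 without βPrlR+/- mouse 4 and 0.063 without Prlr+/- mouse 3, and that of GIPR to GLP1R from −0.60 to −0.17. The cause of these shifts was not tested, beyond the fewer mice in the fits that leave 1 out. No paired analysis was possible because the labels give no replicate numbers shared between the groups. The number of mice limits what the tests can show. The number of reads behind the values of the lowest receptors is not known, and all values describe mRNA of whole islets.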
